A study of Mus musculus with 6 samples.

Results

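The C-type lectin receptors described here are 10 genes of mouse macrophages that encode Dectin, Mincle, DCIR and related receptors: Clec4n, Clec4d, Clec4e, Clec7a, Clec5a, Clec12a, Clec4a2, Clec4a1, Clec4a3 and Clec10a. They were picked by name, with the difference between the groups already known, and all 10 were found among the 38124 genes of the deposited table. The differences of these 10 genes between the groups are therefore given as a description, without a test. Poly(A) RNA came from macrophages grown from the bone marrow of C57BL mice, wild-type in both groups. Of the 6 libraries, 3 came from macrophages kept for 24 hr with thymocytes that dexamethasone had driven into apoptosis, at a ratio given as 1:40, after which the apoptotic cells were removed. The other 3 came from untreated macrophages, and the samples are stated to be biological replicates. Values are RPKM, reads scaled by the length of the gene and the depth of the library.

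C-type lectin receptors are membrane proteins with a carbohydrate-recognition fold, used by macrophages to sense fungi, mycobacteria and damaged cells. Activating members signal through the kinase Syk. Dectin-1 does so through a tyrosine motif in its own tail, and most others through an adaptor chain, FcR gamma or DAP12. Syk then drives the Card9, Bcl10 and Malt1 complex and NF-kB. Inhibitory members carry an ITIM, a tyrosine motif that recruits the phosphatases SHP-1 and SHP-2.

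Such motifs can lie near the start of the coding sequence, and its first 60 bases are shown for the DCIR relatives, Clec12a and Clec7a (GENCODE M21, 5′ to 3′). Capitals mark the codons that fit an ITIM (isoleucine, leucine, valine or serine, then any residue, tyrosine, any 2 residues, and isoleucine, leucine or valine), or, in Clec7a, a tyrosine followed after any 2 residues by leucine or isoleucine.
Clec12a: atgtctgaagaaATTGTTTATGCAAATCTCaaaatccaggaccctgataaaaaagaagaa
Clec4a2: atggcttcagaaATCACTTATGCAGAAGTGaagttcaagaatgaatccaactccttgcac
Clec4a4: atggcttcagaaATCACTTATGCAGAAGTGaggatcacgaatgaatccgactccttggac
Clec4a1: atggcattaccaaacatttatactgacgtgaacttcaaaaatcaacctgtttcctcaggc
Clec4a3: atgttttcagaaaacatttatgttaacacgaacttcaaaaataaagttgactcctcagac
Clec7a: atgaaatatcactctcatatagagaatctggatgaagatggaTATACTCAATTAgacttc
The ITIM began at codon 5 in Clec12a, Clec4a2 and Clec4a4, the gene of DCIR2, which is not among the 10. Clec4a1 and Clec4a3 had the tyrosine codon tat at the same place, codon 7, without the rest of the motif there. Within the first 60 codons, the same pattern also occurred at codon 39 of Clec4n and at codon 51 of Clec4a3, and whether these stretches face the cytosol was not examined. No ITIM match lay in that stretch of Clec7a, Clec4e, Clec4d, Clec4a1, Clec5a and Clec10a. The shorter tyrosine pattern marked in Clec7a also occurred at codon 3 of Clec10a, and within the ITIM matches of Clec12a, Clec4n and Clec4a3. On this basis and on what is known of these receptors, Clec4n, Clec4d, Clec4e, Clec7a and Clec5a are called activating, Clec12a and Clec4a2 inhibitory, and Clec4a1, Clec4a3 and Clec10a were put in neither class.

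Depth was 19315132 to 25933208 mapped reads per library, as recovered from the steps between RPKM values. Correlations across genes were 0.994 to 0.998 within groups and 0.935 to 0.940 between groups (Pearson r of log2(RPKM + 1), 10173 genes). The 7 macrophage markers measured summed to 20081 to 22414 RPKM in treated and 15427 to 16146 RPKM in untreated libraries, and Lyz2 alone gave 19419 ± 1128 RPKM of this in treated and 13388 ± 408 RPKM in untreated macrophages (mean ± SD, n = 3 each). Apart from Lyz2 and Mertk, which were higher, the markers were lower in treated macrophages (limma adjusted p under 0.05). Among them, Itgam had 33.1 ± 0.695 RPKM in treated and 119 ± 1.74 RPKM in untreated macrophages, Fcgr1 had 7.43 ± 0.401 RPKM in treated and 52.7 ± 2.54 RPKM in untreated macrophages, and Csf1r had 359 ± 17.4 RPKM in treated and 536 ± 15.8 RPKM in untreated macrophages. For Emr1 and Cd68 the lower call was lost under both other scalings, and with median-of-ratios scaling their sign turned. The part of these markers in the receptor results was not tested. Of 16 thymocyte and T cell markers, Cd3e, Cd8b1, Ptcra, Rag2 and Themis were listed at 0 in all 6 libraries. All 16 summed to 2.21 to 2.61 RPKM in treated and 4.54 to 4.86 RPKM in untreated libraries, and without Cd4 the other 15 summed to 0.192 to 0.293 RPKM in treated and 0.374 to 0.40 RPKM in untreated libraries. The 7 dendritic cell markers summed to 0.0878 to 0.236 RPKM in treated and 0.177 to 0.226 RPKM in untreated libraries. By contrast, 10 neutrophil and early myeloid markers summed to 40.6 to 43.9 RPKM in treated and 6.66 to 7.33 RPKM in untreated libraries, while Ly6g was listed at 0 in all 6. S100a8 made up most of that sum. In bulk RNA, a change in the number of cells of a type and in the RNA per cell cannot be told apart.

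Of the 10 receptor genes, 6 were higher and 4 lower in treated macrophages, and the group ranges did not overlap for any of them. Ranges were also separate for 69.6% of the 10173 tested genes, those with at least 1 RPKM in at least 3 libraries, and all 10 receptor genes passed that filter. A log2 change beyond 1 in size was seen in 8 of the 10, and 8.10% of the tested genes had such a change with a limma adjusted p under 0.05. The median log2 change of the 10 was 0.99, against -0.13 over all tested genes. Their median size of change was 1.53, against 0.24 over all tested genes (log2(RPKM + 1) scale, treated minus untreated). Neither the activating nor the inhibitory class moved one way.

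**Figure D1:**
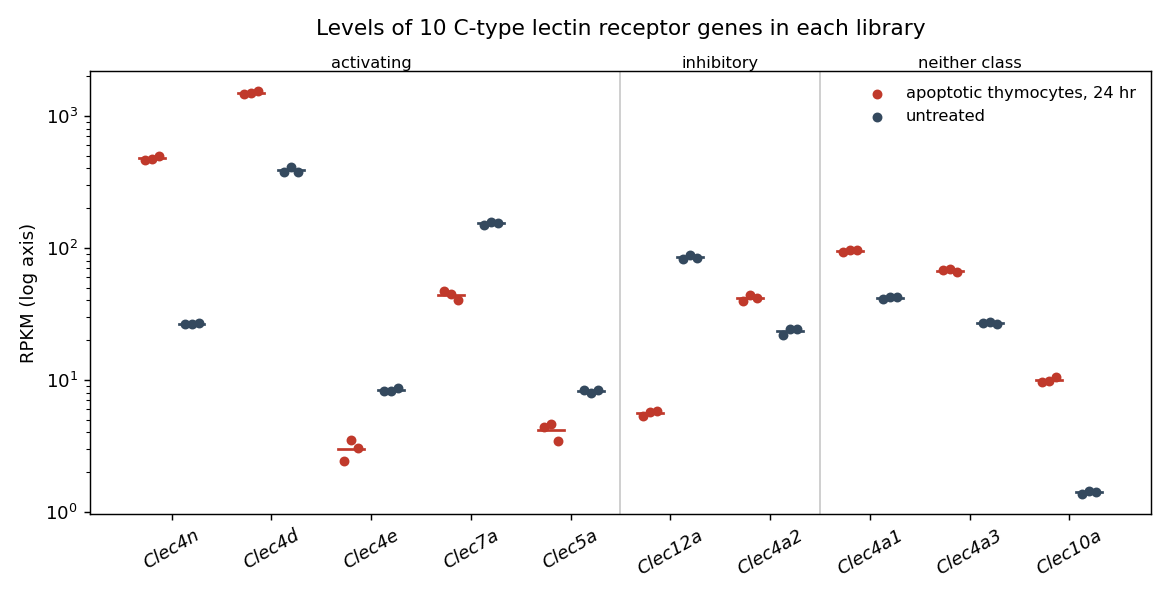
RPKM on a log axis for 10 C-type lectin receptor genes, with 1 point per library (3 per group, macrophages with apoptotic thymocytes to the left of untreated ones) and a line at the group mean. Clec4n, Clec4d, Clec4a2, Clec4a1, Clec4a3 and Clec10a lie higher in treated libraries and the other 4 lower, with no overlap between groups.

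Among the receptors that pair with FcR gamma, Clec4n and Clec4d were higher in treated macrophages and Clec4e was lower. Clec4n (ENSMUSG00000023349, mm10 chromosome 6, 123229843 to 123247021), the gene of Dectin-2, a receptor for fungal mannans, had 467, 474 and 495 RPKM in treated libraries, against 26.3, 26.5 and 26.9 RPKM in untreated libraries. All treated libraries lay far above all untreated ones, by a ratio of means of 18.0 (log2 change 4.12). Clec4n was the 79th most abundant of the 10173 tested genes in treated macrophages and the 1932nd in untreated ones. Clec4d (chromosome 6, 123262107 to 123275268), which encodes MCL, a partner of Mincle in sensing mycobacterial glycolipid, had 1454, 1492 and 1534 RPKM in treated libraries, against 377, 406 and 376 RPKM in untreated libraries. It was the most abundant of the 10 in both groups, with a 3.86-fold higher mean in treated macrophages (log2 change 1.95). Clec4e (chromosome 6, 123281789 to 123289870), the gene of Mincle itself, had 2.42, 3.47 and 3.06 RPKM in treated libraries, against 8.22, 8.21 and 8.71 RPKM in untreated libraries. Its treated libraries spread more than those of any other of the 10, with a coefficient of variation of 17.7%, on 312, 393 and 358 reads. The log2 change of Clec4e was -1.24, a 2.81-fold lower mean. Clec4n and Clec4d moved in the same direction as the sum of the neutrophil and early myeloid markers above, as did Clec4a2, Clec4a1, Clec4a3 and Clec10a. Not all of these markers were higher singly, and the group ranges of Mpo and Prtn3 overlapped. The part of those markers in the result was not tested.

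The other activating receptors were lower in treated macrophages. Clec7a (chromosome 6, 129461591 to 129472777), the gene of Dectin-1, the receptor for fungal beta-glucan, had 47.1, 44.8 and 40.4 RPKM in treated libraries, against 150, 157 and 154 RPKM in untreated libraries. Every treated library was lower than every untreated one, by a ratio of means of 3.48 (log2 change -1.78). Clec5a (chromosome 6, 40574894 to 40585821), which encodes a receptor that signals through DAP12, had 4.38, 4.65 and 3.44 RPKM in treated libraries, against 8.40, 7.94 and 8.40 RPKM in untreated libraries. Its mean was 1.98-fold lower in treated macrophages (log2 change -0.85).

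The inhibitory receptors went in opposite directions. Clec12a (ENSMUSG00000053063, chromosome 6, 129342691 to 129365303), whose product binds uric acid crystals and restrains responses to dead cells, had 5.34, 5.67 and 5.76 RPKM in treated libraries, against 82.8, 87.7 and 83.2 RPKM in untreated libraries. It had the most negative change of the 10, with a 15.1-fold lower mean in treated macrophages (log2 change -3.70), and its rank among tested genes was 6063 in treated and 530 in untreated macrophages. Clec4a2 (chromosome 6, 123106428 to 123143999), the gene of DCIR1, which carries the ITIM shown above, had 39.6, 44.1 and 41.6 RPKM in treated libraries, against 21.9, 24.4 and 24.2 RPKM in untreated libraries. The mean was 1.78-fold higher in treated macrophages (log2 change 0.81), the smallest change of the 10.

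Clec4a1 and Clec4a3, the DCIR relatives without an ITIM match at codon 5, were higher in treated macrophages, as was Clec4a2. Clec4a1 (chromosome 6, 122921848 to 122934619) had 92.7, 96.5 and 96.7 RPKM in treated libraries, against 41.1, 42.2 and 42.6 RPKM in untreated libraries, a 2.27-fold higher mean. Clec4a3 (chromosome 6, 122952515 to 122969875) had 67.6, 68.9 and 65.2 RPKM in treated libraries, against 26.9, 27.5 and 26.4 RPKM in untreated libraries, a 2.49-fold higher mean. Within a group the libraries lay close together for both genes, with coefficients of variation of 1.86% to 2.82%. Clec10a (chromosome 11, 70156197 to 70170834), which encodes the galactose-type lectin MGL1, had 9.67, 9.83 and 10.5 RPKM in treated libraries, against 1.38, 1.43 and 1.42 RPKM in untreated libraries. Its ratio of means was 7.09, higher in treated macrophages, and its untreated values rest on 77, 99 and 95 reads.

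Because RPKM is scaled by gene length, the levels of the 10 genes can be put in order. In treated macrophages the order ran Clec4d, Clec4n, Clec4a1, Clec4a3, Clec7a, Clec4a2, Clec10a, Clec12a, Clec5a, Clec4e, and the ranges of Clec7a and Clec4a2, and of Clec5a and Clec4e, overlapped. In untreated macrophages it ran Clec4d, Clec7a, Clec12a, Clec4a1, Clec4a3, Clec4n, Clec4a2, Clec4e, Clec5a, Clec10a, and the ranges of Clec4a3 and Clec4n, and of Clec4e and Clec5a, overlapped. These levels depend on the length by which reads were divided. That length was 4.48 times the coding transcript of Clec5a, 2.27 times that of Clec4a2, 2.05 times that of Clec12a and 1.97 times that of Clec4e, and between 1 and 1.24 times that of the other 6. With each gene rescaled to its coding transcript, an alternative chosen after seeing the data, Clec4a2 ranked at place 4 of the 10 in both groups. Clec12a then stood above Clec7a in untreated macrophages, and Clec4e remained the lowest in treated ones. Clec5a moved from place 9 in both groups to place 7 in treated and place 6 in untreated macrophages. Such a length is common to all libraries and leaves each gene's ratio of group means as it is. Changes on the log2(RPKM + 1) scale and ratios of sums over genes do depend on it.

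The make-up of the summed receptor RPKM differed between groups. Together the 10 genes came to 2189, 2244 and 2297 RPKM in treated libraries, against 744, 790 and 752 RPKM in untreated libraries. Clec4d made up 66.6% ± 0.213 of that sum in treated and 50.7% ± 0.713 in untreated macrophages (mean ± SD, n = 3 each). Clec4n held 21.3% ± 0.228 in treated and 3.49% ± 0.115 in untreated macrophages. The share of Clec7a was 1.97% ± 0.196 in treated and 20.2% ± 0.259 in untreated macrophages. For Clec12a it was 0.249% ± 0.00477 in treated and 11.1% ± 0.0277 in untreated macrophages.

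**Figure D2:**
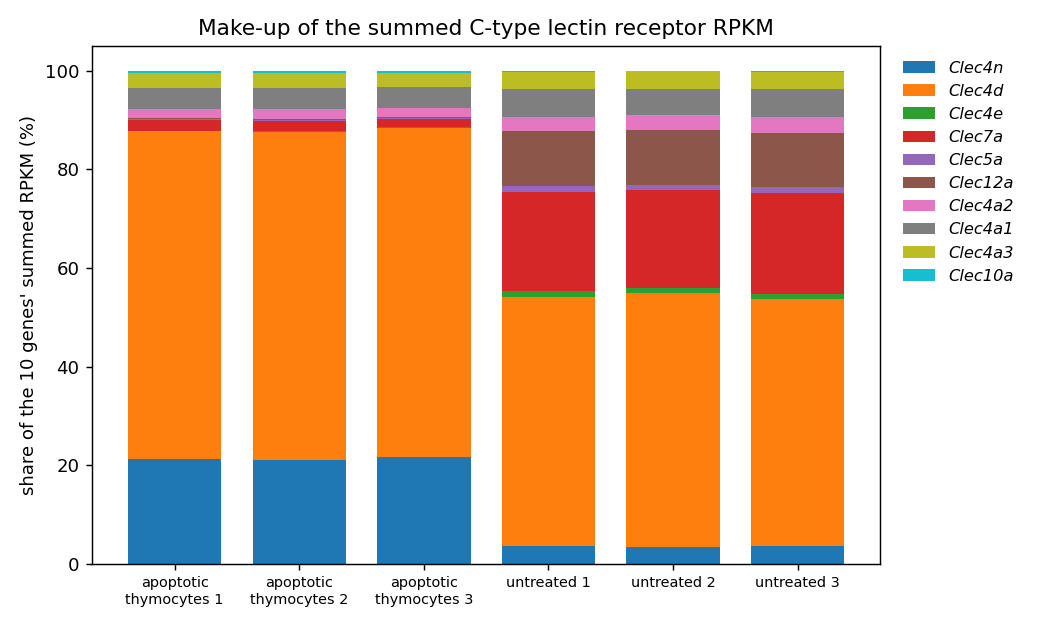
Share of the summed RPKM of 10 C-type lectin receptor genes held by each gene, in percent, with 1 bar per library (3 libraries with apoptotic thymocytes on the left, 3 untreated on the right). Clec4d and Clec4n fill most of each treated bar, while Clec7a and Clec12a hold a visible share of each untreated bar.

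Set against each other by class, the 5 activating genes summed to 43.9, 40.5 and 43.8 times the RPKM of the 2 inhibitory genes in treated libraries, against 5.45, 5.41 and 5.35 times in untreated libraries. Clec4d carried much of both sums. Without it the ratio was 11.6, 10.6 and 11.5 in treated libraries, against 1.85, 1.78 and 1.84 in untreated libraries. The level of Clec4n was 87.4, 83.6 and 86.0 times that of Clec12a in treated libraries, against 0.318, 0.303 and 0.324 times in untreated libraries, so the order of these genes turned round. Clec4n carried most of what was left of the activating sum in treated libraries, and Clec7a carried most of it in untreated libraries. Without both Clec4d and Clec4n, also an alternative chosen after seeing the data, Clec7a, Clec4e and Clec5a came to 1.20, 1.06 and 0.991 times the inhibitory sum in treated libraries, against 1.59, 1.55 and 1.59 times in untreated libraries. The ratio was then lower in treated macrophages, so the direction of the whole-class difference depends on Clec4d and Clec4n. Its size also depends on the inhibitory sum, which was 47.4 ± 2.42 RPKM in treated and 108 ± 3.75 RPKM in untreated macrophages. Within that sum Clec12a was lower in treated macrophages and Clec4a2 was higher. Rescaled to coding transcripts, the ratio of the whole class was 20.6, 19.0 and 20.6 in treated libraries, against 2.80, 2.76 and 2.75 in untreated libraries. These ratios are taken within a library and do not depend on the scaling between libraries.

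The direction of all 10 differences was the same in each of the 12 alternatives run, but only the 2 other scalings could have turned one. The filters and the replicate block leave the estimate as it is. With separate group ranges, another pseudocount or leaving out a library cannot turn its sign. The log2 change of Clec4n ranged from 4.09 to 4.29 and that of Clec12a from -3.90 to -3.54. The widest range was that of Clec10a, from 2.16 to 2.74, the highest value being that with a pseudocount of 0.1. Under median-of-ratios scaling the median tested gene was at 0.015, against -0.13 with deposited values, and all 10 changes moved up. The smallest of either sign were then -0.70 for Clec5a and 0.97 for Clec4a2.

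**Figure D3:**
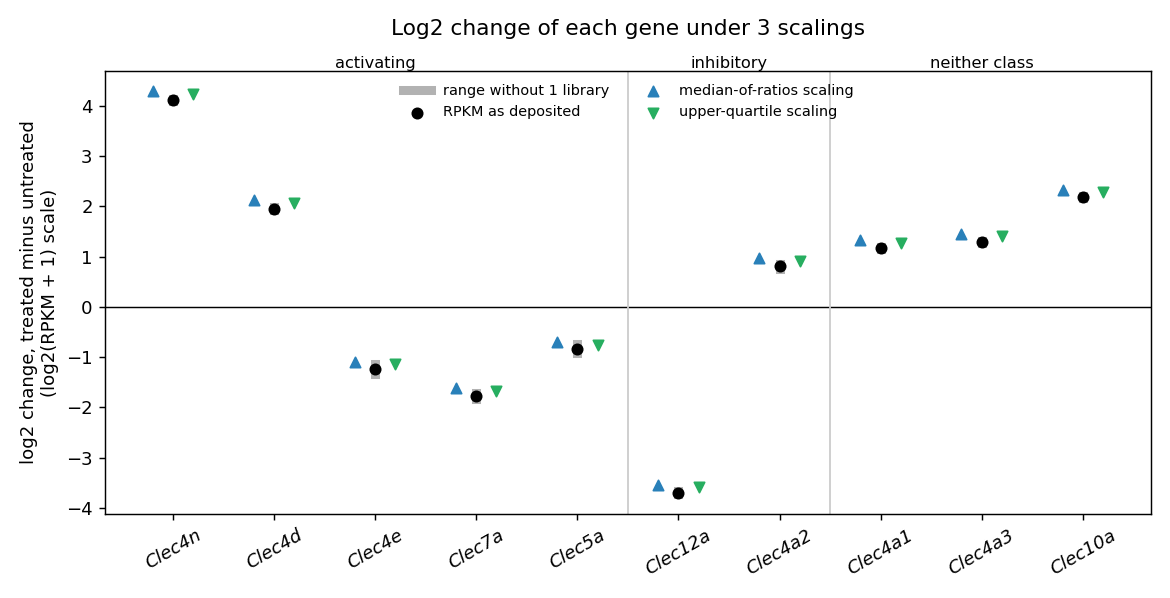
Log2 change (macrophages with apoptotic thymocytes minus untreated, log2(RPKM + 1) scale) of 10 C-type lectin receptor genes with deposited RPKM (circles), median-of-ratios scaling (upward triangles) and upper-quartile scaling (downward triangles), and a grey bar for the range when 1 library is left out. Each gene stays on its side of 0, from 4.12 for Clec4n to -3.70 for Clec12a with deposited values.

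Most of these genes are neighbours. Clec4a1, Clec4a3, Clec4a2, Clec4n, Clec4d and Clec4e lie within 368 kb of chromosome 6 with Clec4a4, Clec4b1 and Clec4b2 between them, while Clec12a and Clec7a lie in another cluster of that chromosome that spans 130 kb from one to the other. Direction was not shared along the cluster. Clec4n and Clec4d are 15.1 kb apart and both were higher in treated macrophages, and Clec4e, 6.52 kb beyond Clec4d on the opposite strand, was lower. The level of Clec4d was 600, 429 and 501 times that of Clec4e in treated libraries, against 45.9, 49.5 and 43.2 times in untreated libraries. Among the genes in between, Clec4b1 was lower in treated macrophages (1.85 ± 0.0435 RPKM) than in untreated ones (3.47 ± 0.781 RPKM, limma adjusted p = 0.00113). Clec4a4 averaged 0.436 RPKM in treated and 0.244 RPKM in untreated macrophages, and Clec4b2 was listed at 0 in all 6 libraries.

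**Figure D4:**
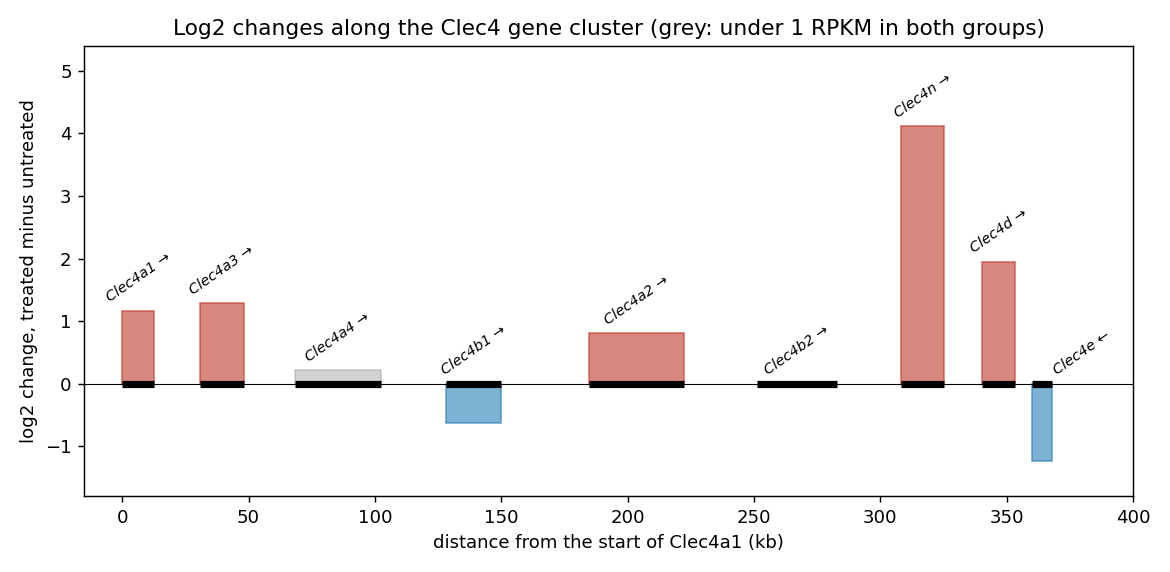
Log2 change (macrophages with apoptotic thymocytes minus untreated) of the 9 Clec4 genes of the cluster, drawn as bars over each gene's extent (black, arrows give the strand) against the distance from the start of Clec4a1 in kb. Clec4n and Clec4d rise above 0 and their neighbour Clec4e lies below 0, at -1.24.

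The promoters of the adjoining pair Clec4d and Clec4e, which moved apart, and of Clec12a, the gene with the most negative change, are shown because they hold the same short ETS-type letters. Each window runs from 250 bases before to 50 bases after the RefSeq start (GRCm38.p6, strand of the gene, 5′ to 3′), at chr6:123261857-123262156 for Clec4d (plus strand), chr6:123289822-123290121 for Clec4e (minus strand) and chr6:129349994-129350293 for Clec12a (plus strand). The windows of Clec4d and Clec4e lie at the starts of the gene extents given above. That of Clec12a lies inside its gene extent, which begins at 129342691. Capitals mark GAGGAA on either strand.
Clec4d: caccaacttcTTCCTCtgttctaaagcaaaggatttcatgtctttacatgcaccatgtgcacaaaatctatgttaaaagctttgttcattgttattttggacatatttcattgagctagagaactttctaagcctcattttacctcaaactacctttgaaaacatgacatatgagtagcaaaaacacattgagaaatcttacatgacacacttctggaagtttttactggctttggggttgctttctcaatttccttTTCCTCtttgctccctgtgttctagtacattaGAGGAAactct
Clec4e: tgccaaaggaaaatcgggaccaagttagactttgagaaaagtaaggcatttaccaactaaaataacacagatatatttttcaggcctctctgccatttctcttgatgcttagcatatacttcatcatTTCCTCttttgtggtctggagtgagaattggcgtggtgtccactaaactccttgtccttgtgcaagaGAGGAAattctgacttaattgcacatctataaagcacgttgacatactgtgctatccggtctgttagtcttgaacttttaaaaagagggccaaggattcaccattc
Clec12a: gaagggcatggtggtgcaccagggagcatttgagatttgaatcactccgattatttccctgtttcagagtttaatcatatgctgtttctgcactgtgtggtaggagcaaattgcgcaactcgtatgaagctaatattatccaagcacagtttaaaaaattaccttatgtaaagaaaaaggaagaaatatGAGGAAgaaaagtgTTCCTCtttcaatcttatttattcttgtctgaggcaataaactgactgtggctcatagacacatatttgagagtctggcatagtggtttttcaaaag
There were 3 such matches in Clec4d, 2 in Clec4e and 2 in Clec12a. Windows were at hand for 8 of the 10 genes, all but Clec4n and Clec10a, and GAGGAA stood in 6 of these 8, against 28.3% of 32851 promoter windows of that length. Counting either strand, the AP-1 letters TGANTCA stood in the windows of Clec4a2 and Clec12a (7.81% of all windows) and the C/EBP letters TTGCNNAA in those of Clec4e and Clec12a (10.8%). CANGTG, the E-box letters read by factors such as TFEB, stood in 4 of 8 (44.9%), and TTCNNNGAA, read by STAT factors, in Clec4a2 (8.30%). The NRF2 letters TGACNNNGC (12.4%) and the palindromic glucocorticoid receptor element (0.475%) stood in 0 of 8. A match is a description of letters and not a binding site. Genes higher and lower in treated macrophages both held GAGGAA.

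Several of the genes have close relatives, and the treatment of reads that match more than 1 gene is not given in the sources used here. Over aligned bases, the coding sequence of Clec4a2 was 87.1% identical to that of Clec4b1 and 85.8% identical to that of Clec4a4. These bases made up 79.8% and 90.1% of the longer coding sequence. That of Clec10a was 90.4% identical to that of its neighbour Mgl2, over 79.7% of the longer one. Exact sharing was rare. Of all 75-base windows in the transcripts of a gene, taken at the number of cycles of the sequencing kit, 3.24% in Clec4a2 and 4.44% in Clec10a also occurred in transcripts of another gene. For the other 8 genes this share was 0, Clec4n, Clec4d, Clec4e, Clec12a and Clec7a among them. Within coding sequences, Clec4a2 shared 89 windows of 75 bases with Clec4a4 and 8 with Clec4b1. Mgl2 averaged 0.444 RPKM in treated and 0.0572 RPKM in untreated macrophages, far under Clec10a.

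A wider list of 34 other C-type lectin genes was mostly low in these cells. Of these, 26 did not reach the expression filter and 9 were listed at 0 in all 6 libraries. Of the 8 tested, 1 rose, 5 fell and 2 did not pass (limma, Benjamini-Hochberg adjusted p under 0.05), a share of 75.0% called against 64.8% of all tested genes. Of the 5, Cd207 and Clec2i reached the filter only through the untreated libraries, so their place in that count was set by the filter. Scaled by median of ratios, 2 rose and 5 fell. With no filter, 10 of 25 genes fell and 3 rose, and 27.5% of all genes above 0 in any library fell. Cd72, the gene of an ITIM-bearing lectin best known from B cells, fell to 8.94 ± 0.191 RPKM in treated macrophages, against 92.9 ± 1.36 RPKM in untreated ones (log2 change -3.24, SE 0.0401, limma adjusted p = 7.16e-11). That is a 10.4-fold lower mean, with the ITIM-bearing receptors Clec12a and Cd72 lower and Clec4a2 higher. Cd207, which encodes langerin, had 0.686 ± 0.238 RPKM in treated and 7.18 ± 0.709 RPKM in untreated macrophages. Colec12, a scavenger receptor gene with a C-type lectin domain, rose to 38.7 ± 3.20 RPKM in treated macrophages, against 18.7 ± 0.436 RPKM in untreated ones (limma adjusted p = 7.30e-07). The mannose receptor gene Mrc1 did not pass, with 55.1 ± 4.78 RPKM in treated and 50.3 ± 0.548 RPKM in untreated macrophages (limma adjusted p = 0.0982).

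Genes of the signalling chain below the receptors went in both directions. Of 30 genes on that list, all tested, 6 rose, 17 fell and 7 did not pass, 76.7% called against 64.8% of all tested genes, of which 18.8% rose and 46.0% fell. The median log2 change of the list was -0.18, against -0.13 over all tested genes, and 8 rose and 12 fell when libraries were scaled by median of ratios. Of the 17, Src and Fgr reached the filter only through the untreated libraries. Fcer1g, the gene of the FcR gamma adaptor, fell to 670 ± 21.9 RPKM in treated macrophages, against 815 ± 13.4 RPKM in untreated ones (log2 change -0.28, limma adjusted p = 0.000737). Scaling by median of ratios ended that call (limma adjusted p = 0.0984, the highest of 12 alternatives, in which it ranged down to 0.000583). The summed RPKM of Clec4n, Clec4d and Clec4e was 2.98, 2.88 and 2.99 times that of Fcer1g in treated libraries, against 0.515, 0.536 and 0.502 times in untreated libraries. Clec4n, Clec4d and Clec4e together thus exceeded Fcer1g in RPKM in treated libraries and stood below it in untreated libraries. Any other receptor that uses this adaptor was left out of the sum, and the ratio depends on the gene lengths used. Tyrobp, which encodes the DAP12 adaptor, had 1894 ± 120 RPKM in treated and 1693 ± 52.3 RPKM in untreated macrophages, a change close to the threshold (log2 change 0.16, limma adjusted p = 0.0484, 0.00226 to 0.18 over the alternatives). Without any one of untreated replicates 1, 2 and 3 or treated replicates 2 and 3, its adjusted p was 0.0637 to 0.167, and it was also lost with a pseudocount of 0.1 and with no filter.

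Syk, the kinase that the activating receptors share, did not pass, with 37.8 ± 1.38 RPKM in treated and 40.8 ± 0.734 RPKM in untreated macrophages (log2 change -0.11, limma adjusted p = 0.0581). The sign of that change turned under both other scalings, and leaving out treated replicate 3 made Syk pass in the lower direction (limma adjusted p = 0.0118, against 0.0118 to 0.884 over the alternatives). Genes of the Card9 complex went different ways. Card9 rose to 18.2 ± 0.388 RPKM in treated macrophages, against 15.2 ± 0.955 RPKM in untreated ones, and Bcl10 rose to 47.8 ± 2.51 RPKM, against 35.9 ± 1.60 RPKM in untreated ones. Malt1, whose product is the paracaspase of the complex, fell to 4.25 ± 0.483 RPKM in treated macrophages, against 9.89 ± 0.297 RPKM in untreated ones (log2 change -1.06, limma adjusted p = 1.27e-06). Relb, an NF-kB subunit gene, fell to 2.39 ± 0.282 RPKM in treated macrophages, against 7.64 ± 0.308 RPKM in untreated ones (limma adjusted p = 2.05e-07). The kinase gene Src had 0.755 ± 0.124 RPKM in treated and 3.16 ± 0.0427 RPKM in untreated macrophages. Of the phosphatases that ITIMs recruit, Ptpn6, the gene of SHP-1, fell to 68.0 ± 3.73 RPKM in treated macrophages, against 96.2 ± 0.352 RPKM in untreated ones (limma adjusted p = 1.81e-05). Ptpn11, the gene of SHP-2, did not pass, with 13.7 ± 0.316 RPKM in treated and 14.5 ± 0.180 RPKM in untreated macrophages (limma adjusted p = 0.120). Inpp5d, the gene of the lipid phosphatase SHIP1, rose to 54.2 ± 2.69 RPKM in treated macrophages, against 38.5 ± 0.196 RPKM in untreated ones (limma adjusted p = 1.71e-05).

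**Figure D5:**
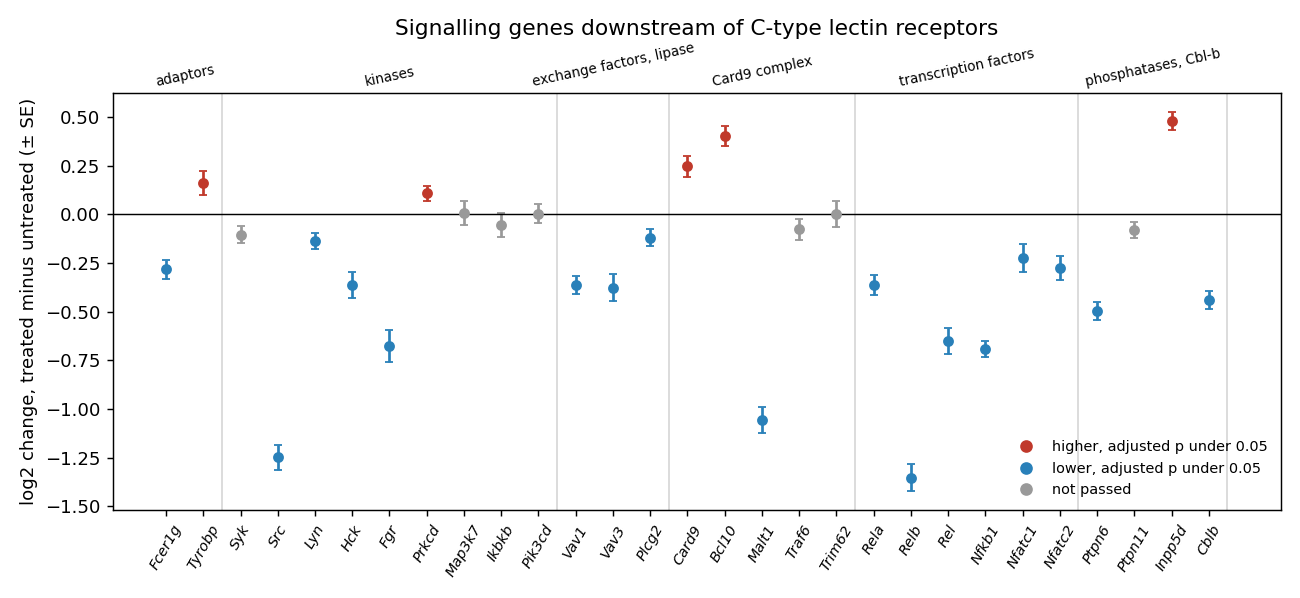
Log2 change (macrophages with apoptotic thymocytes minus untreated, log2(RPKM + 1) scale) with its standard error for 29 of the 30 signalling genes below C-type lectin receptors, grouped by role and coloured by the limma call (n = 3 libraries per group). Inpp5d is the highest at 0.48 and Relb the lowest at -1.35, and all but Relb, Src and Malt1 of the genes drawn lie within 1 of 0.

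Of 16 genes known to be induced through Syk and Card9 in myeloid cells, 7 reached the filter, and 5 of these did so only through the untreated libraries, so a count of falls among the 7 carries no weight. Tnf and Nlrp3 reached it in both groups. Tnf, the gene of a proinflammatory cytokine, fell to 1.63 ± 0.195 RPKM in treated macrophages, against 19.3 ± 0.902 RPKM in untreated ones (log2 change -2.95, limma adjusted p = 1.25e-09). Nlrp3, the gene of an inflammasome sensor, fell to 3.76 ± 0.106 RPKM in treated macrophages, against 10.5 ± 0.238 RPKM in untreated ones (limma adjusted p = 2.83e-08). The other 5 were Egr2, Cxcl2, Il10, Cxcl1 and Egr1. Egr2, an early growth response factor gene, had 0.339 ± 0.0428 RPKM in treated and 7.48 ± 0.326 RPKM in untreated macrophages. Il10, the gene of an anti-inflammatory cytokine, had 0.222 ± 0.149 RPKM in treated and 2.01 ± 0.0291 RPKM in untreated macrophages. With no filter, 10 of 15 genes of the list fell and 0 rose (limma, Benjamini-Hochberg adjusted p under 0.05), where 27.5% of all genes fell.

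Among 7 genes reported to encode or make ligands of these receptors, 1 rose, 4 fell and 2 did not pass, 71.4% called against 64.8% of all tested genes. Scaled by median of ratios, 2 rose and 3 fell. Anxa1, an annexin gene whose product family binds Dectin-1 on apoptotic cells, fell to 79.0 ± 5.20 RPKM in treated macrophages, against 391 ± 16.3 RPKM in untreated ones (log2 change -2.29, limma adjusted p = 2.60e-09). Vim, the gene of vimentin, another reported Dectin-1 ligand, fell to 332 ± 15.8 RPKM in treated macrophages, against 679 ± 17.7 RPKM in untreated ones (limma adjusted p = 1.73e-07). These values are from bulk RNA of the macrophage cultures, and ligands on the apoptotic cells were not measured. Whether any of this RNA came from other cells was not tested.

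Genes whose profile over the 6 libraries lay nearest to that of Clec4n and Clec12a were sought by the distance between log2(RPKM + 1) values, each gene centred on its own mean. Nearest to Clec4n were Amica1 (distance 0.135), with 18.1 to 18.5 RPKM in treated and 0 to 0.0706 RPKM in untreated libraries, Bst1 (0.194) and Hp (0.325). Nearest to Clec12a were H2-Eb1 (0.114), with 4.45 to 5.26 RPKM in treated and 76.7 to 79.0 RPKM in untreated libraries, Nptx1 (0.126) and Pcdh7 (0.191). Over 2 conditions this distance is mainly a comparison of the size of the change.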

How the data were processed

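RNA of 6 bone-marrow-derived macrophage cultures was sequenced from strand-specific poly(A) libraries, per the labels' protocols. The authors deposited RPKM values for 38124 genes, per the file headers, with annotation on mouse GRCm38 (mm10), per the labels. The aligner, the counting program, the use of strand and the handling of multi-mapping reads are not given in the sources used here, so values of overlapping genes and close paralogs are uncertain. Each value column matched 1 sample title, and 0 columns belonged to no sample.

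Depth was recovered by searching for the read total that makes RPKM times gene length whole. With GENCODE M21 exon lengths, 51.5% to 51.9% of genes above 0 gave whole reads within 0.01. For the receptor genes this length served for 6, and a searched length for the other 4. At this depth 1 read on a gene of 1 kb is worth 0.0386 to 0.0518 RPKM.

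The 10173 genes that reached 1 RPKM in 3 libraries entered limma 3.58.1 under R 4.3.3, as log2(RPKM + 1). The model held the group alone, and the variance prior followed mean expression. Benjamini-Hochberg adjustment ran over all of these genes, and a gene was called at an adjusted p under 0.05. The test was tested on simulated data. Log2 changes are treated minus untreated, and SE is the moderated standard error. They understate changes of genes near 1 RPKM. The receptor genes and the lists were chosen with earlier results of these data known, and the receptor genes got no test. Of every other list, genes with a log2 change beyond 1 in size were named, up to 6, with 9 core signalling genes and the 3 nearest profiles. Values for Clec4b1, Clec4a4, Clec4b2, Mgl2, Mrc1 and the marker genes were added after they were seen. Values of 2 genes on the lists are not reported here, though the counts include them. Alternatives were 2 other scalings, a pseudocount of 0.1, no filter, a filter at 5 RPKM, a replicate block and leaving out each library, with 2 more for the class ratio, chosen after seeing the data. Coding sequences were aligned with Biopython 1.88. Promoters are RefSeq windows of GRCm38.p6.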

Additional observations from a re-analysis of the deposited data

How the results depend on the processing

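Directions of all 10 receptor genes held in the 12 alternatives, and 25 of the 29 other genes picked by the naming rule kept their direction and their side of the threshold wherever they were tested. Src, Il10 and Cxcl1 had no value with a filter at 5 RPKM. The exceptions were Fcer1g, Tyrobp, Syk and Ptpn11. The change of Syk turned to 0.0613 with median-of-ratios and 0.00758 with upper-quartile scaling, and that of Ptpn11 to 0.0782 and 0.0267. Over all genes, 6594 were called, 29.0% of them higher. The share higher was 53.3% of 6066 with median-of-ratios scaling and 45.6% of 6059 with upper-quartile scaling. Without any 1 library, 5675 to 6755 genes were called. With no filter, 13 of 25 other C-type lectin genes were called in place of 6 of 8, since more genes were tested. With a filter at 5 RPKM, 4 of 4 target genes were called in place of 7 of 7, since fewer genes were tested. All 4 reached 5 RPKM only in the untreated libraries, so this count carries no weight. Counts of called signalling genes were 18 to 23 of 30 without 1 library, against 23 with all 6.

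Same-numbered libraries of the groups did not deviate together (r = 0.197, -0.0310 and -0.162 for replicates 1, 2 and 3 over tested genes), and of the treated libraries only replicate 1 correlated best with its own number, so the numbers were not used as pairs. With the replicate number as a block, 6531 genes were called in all, with 6 other C-type lectin genes, 21 signalling genes, 7 target genes and 5 ligand genes. The count of target genes carries no weight here either, since 5 of the 7 reached the filter only through the untreated libraries. Clec5a, Clec4e and Clec10a rest on few reads. A change in Clec5a (SE 0.0859) or Clec4e (SE 0.0902) is known less closely than in Clec4d (SE 0.0518). The SE of Clec10a was 0.0517, though its change had the widest range over the alternatives.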
